A study of Mus musculus with 6 samples.

Results

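The 31 genes described here encode enzymes of the tricarboxylic acid (TCA) cycle, though not all of them, and cytosolic forms of some. They also encode the pyruvate dehydrogenase complex with its kinases and phosphatases, pyruvate carboxylase and the 4 subunits of succinate dehydrogenase. They were chosen by symbol out of 52089 symbols in the deposited table, and all 31 were present. Their measured values were not used for the choice, but earlier results of these data were known. The samples were primary preadipocytes of the stromal-vascular fraction of inguinal white fat from 129SvEv mice, which were induced for 2 days at sub-confluence and then differentiated for 1 day with rosiglitazone to give brite adipocytes. In 3 libraries (*Ctcflos* KD 1 to 3) the cells carried an LNA Gapmer, an antisense oligonucleotide with locked nucleic acids, against the lncRNA *Ctcflos*, and in 3 libraries (NC ctrl 1 to 3) a nontargeting control Gapmer, each at 50 nM and with harvest 24 h after transfection. All 6 libraries shared strain, tissue, rosiglitazone and the transfection itself, and were made from total RNA with a stranded kit and read as 150 bp paired ends. Nothing states that the libraries of a group came from separate cultures, so p-values measure the spread between these libraries, which may be technical.

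The TCA cycle oxidises acetyl-CoA in the mitochondrial matrix and hands the electrons to the respiratory chain, to which succinate dehydrogenase belongs as complex II. Pyruvate enters through the pyruvate dehydrogenase complex, which its kinases switch off and its phosphatases switch on, or through pyruvate carboxylase, which replenishes oxaloacetate. In brown and brite adipocytes this oxidation feeds heat production by the uncoupling protein UCP1, and cytosolic isoforms of some of the enzymes serve lipid synthesis and NADPH supply.

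All values are RPKM, reads scaled to the length of the transcript and to the mapped reads of the library, averaged over the accessions of a gene. The level of any ratio, share or sum between genes therefore depends on which accessions each gene lists. Fold changes are KD minus control on the log2(RPKM + 1) scale, which understates changes of low genes, and were tested with limma over the 11701 genes of mean RPKM at least 1. *Ctcflos* (1300015D01Rik) was at 0.0969, 0.0705 and 0.210 RPKM in KD 1 to 3 and at 0.748, 0.751 and 0.840 in NC 1 to 3, so that 16.1% of the control mean was left (log2 fold change -0.66, adjusted p = 0.025 in limma without a filter on low values). Depth, recovered from the low values, was 60.8 to 79.2 mio mapped reads per library. This lies above the reads per sample that the authors state for the deep sequencing. Whether both reads of a pair were counted singly was not tested, so read counts given here may exceed the number of fragments. Adipocyte markers were abundant, with a summed level of 4539 to 5983 RPKM in KD and 6154 to 6820 RPKM in controls over 8 of 8 genes. Most of this sum was *Fabp4*, with means of 3291 RPKM in KD and 4041 RPKM in controls. *Cidec* and *Plin4* stood at 108 and 112% of the control mean with overlap, and the others below it. Of the 8, only *Cebpa* was called (56.4% of the control mean, adjusted p = 0.038 in limma). *Ucp1* was at 23.6, 26.1 and 12.4 RPKM in KD and 67.0, 27.1 and 57.3 RPKM in controls (adjusted p = 0.048 in limma). Markers of endothelial cells and skeletal muscle stayed at a summed 1.35 RPKM or less, with *Myod1* and *Myh4* at 0 in every library. In these bulk libraries, fewer cells of a type and less RNA per cell cannot be told apart.

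Of the 31 genes, 3 were lower in KD and 0 higher at an adjusted p under 0.05 in limma: *Suclg2*, *Sucla2* and *Idh1*. Over all genes tested, 24.0% were called, 12.4% as lower and 11.5% as higher in KD, so the members' share of 9.68% called as lower was not above that of all genes. At an unadjusted p under 0.05, 10 members passed (32.3%, against 38.9% of all genes). The median log2 fold change of the members was -0.25, against 0.028 for all genes tested. A negative fold change was found for 28 members (90.3%, against 46.8% of all genes), and in 13 members (41.9%, against 21.9% of all genes) each KD library lay below each control library. No member had all KD libraries above all controls, which 22.9% of all genes had.

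**Figure D1:**
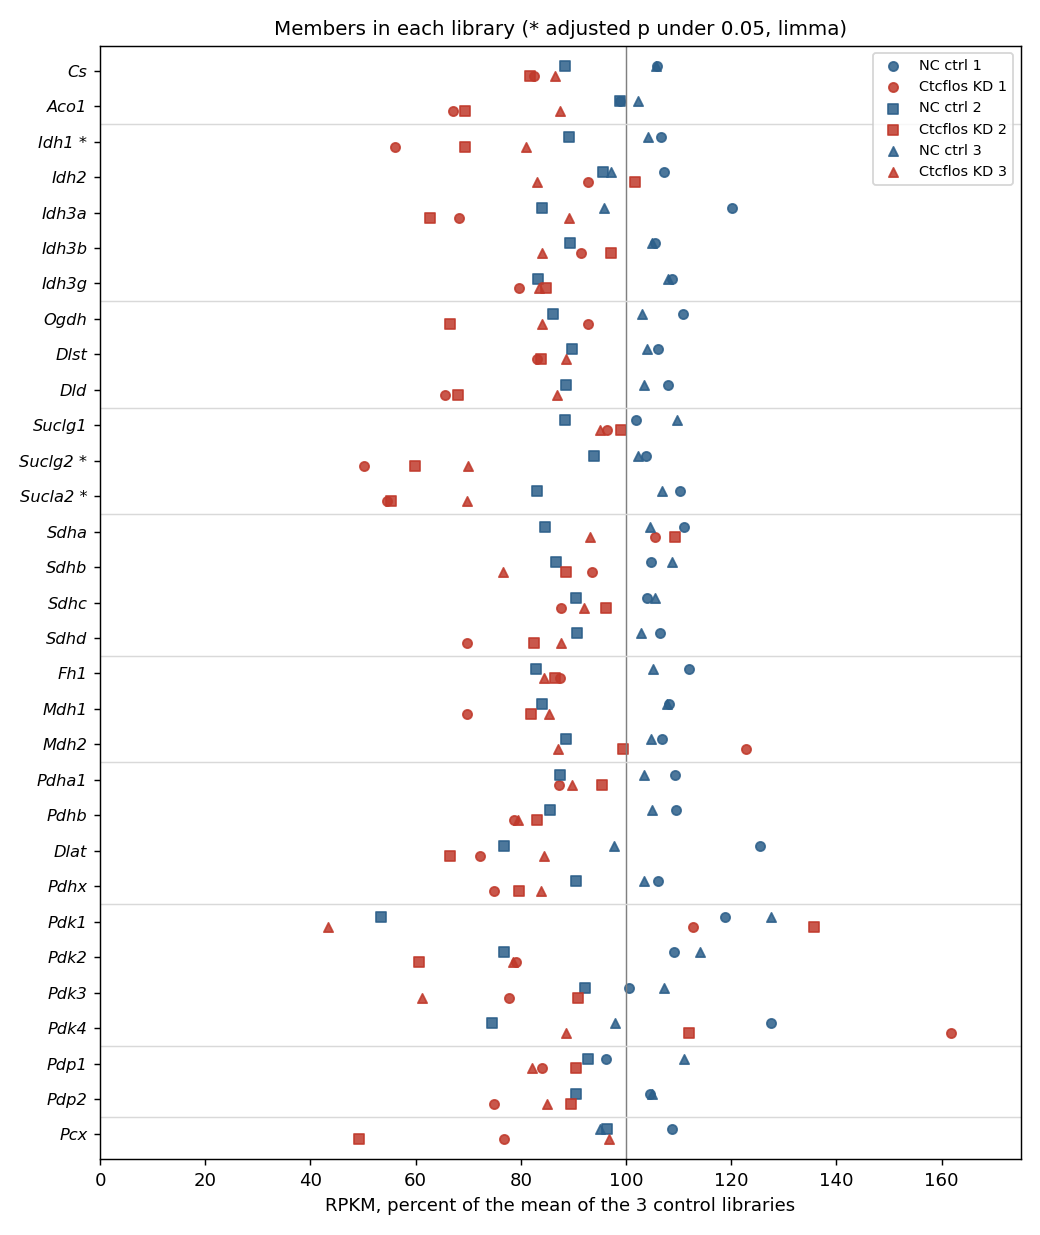
RPKM of each of the 31 genes in each library, in percent of the mean of the 3 control libraries (x axis), with control libraries in blue and KD libraries in red, ordered by enzyme. The called genes (asterisk, adjusted p under 0.05 in limma) have all red points left of the blue ones, and the blue square, NC ctrl 2, is the lowest control in 29 of the 31 genes.

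The control libraries were not alike in these genes. NC ctrl 2 lay below the mean of the other controls in 31 of 31 members, and in 64.1% of all genes tested. The median difference on the log2(RPKM + 1) scale was -0.25 over the members and -0.058 over all genes tested. The 3 KD libraries had member medians of -0.27, -0.24 and -0.22 against the mean of all 3 controls, which includes NC ctrl 2. Against NC ctrl 1 and 3 alone, the median log2 fold change of the members in KD was -0.37, lower than that of NC ctrl 2. NC ctrl 1 and 3 stood at 0.14 and 0.10. The summed RPKM of the members was 1033, 1077 and 1153 in KD 1 to 3 and 1453, 1178 and 1393 in NC 1 to 3, that is, 1088 ± 60.5 against 1342 ± 145 (SD, n = 3 each). In KD 1, 2 and 3, 28, 27 and 30 members lay below both NC ctrl 1 and NC ctrl 3, and 21, 19 and 19 members lay below NC ctrl 2. The shares of all genes for these counts were not computed. Below the mean of all 3 controls lay 27, 27 and 31 of the 31 members in KD 1 to 3, against 45.2, 45.7 and 53.4% of all genes tested. The labels give no batch for NC ctrl 2, and its brite marker sum of 123 RPKM was the lowest of the controls, which were otherwise at 194 and 169 RPKM, above 70.4 to 91.5 RPKM in KD. Its macrophage marker sum was 2.83 RPKM, against 0.952 and 1.15 RPKM in the other controls and 3.32 to 5.44 RPKM in KD. This sum rests on 4 of 5 markers. *Cd68* was called higher in KD (log2 fold change 1.05, adjusted p = 0.023 in limma), and *Csf1r* was at 1.31, 1.48 and 1.10 RPKM in KD and 0.269, 0.833 and 0.438 RPKM in controls, with every KD library above every control. *Itgam* and *Ptprc* were at most 0.0513 and 0.0486 RPKM in any library. At these low values *Itgam* overlapped between the groups, and *Ptprc* went the other way, with every KD library below every control. The part of either marker group in the members' values was not tested.

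**Figure D2:**
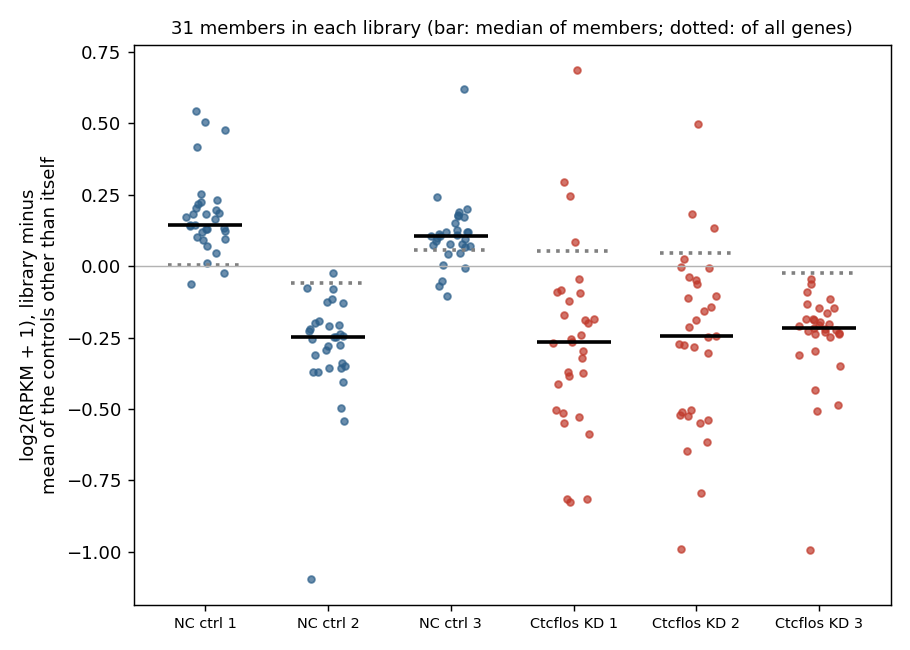
Difference of each library from the mean of the control libraries other than itself on the log2(RPKM + 1) scale (y axis) for the 31 genes (points), with their median (bar) and the median of all genes tested (dotted line). The bar of NC ctrl 2 lies at -0.25 against the other controls, those of the KD libraries at -0.27 to -0.22 against all 3 controls, and the bars of NC ctrl 1 and 3 lie at 0.14 and 0.10.

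The succinyl-CoA ligase held 2 of the 3 called genes. This enzyme splits succinyl-CoA to succinate with formation of a nucleoside triphosphate, and pairs the alpha subunit of *Suclg1* with 1 of 2 beta subunits, that of *Suclg2* for GTP or that of *Sucla2* for ATP. The bases upstream of their annotated starts are shown so that the subunits that fell can be set beside the one that was not called, and those of *Idh1*, the other called gene, are added. Each was read from the RefSeq promoter entry on GRCm38.p6 (250 bases before to 50 after the gene's RefSeq start) and runs 5′ to 3′ on the gene's strand. It ends before the RefSeq start or the first Gencode vM21 start within that window, whichever lies farther upstream. For *Suclg2* this is the RefSeq start. Capitals mark motif letters found by a search on both strands.
Suclg2: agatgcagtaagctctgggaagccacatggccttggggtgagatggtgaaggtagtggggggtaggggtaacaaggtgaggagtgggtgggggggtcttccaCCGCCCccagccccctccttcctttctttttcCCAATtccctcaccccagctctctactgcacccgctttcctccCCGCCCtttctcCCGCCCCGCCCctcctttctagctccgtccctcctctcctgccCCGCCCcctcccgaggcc
Sucla2: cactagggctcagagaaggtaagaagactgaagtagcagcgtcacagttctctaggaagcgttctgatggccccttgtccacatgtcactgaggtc
Suclg1: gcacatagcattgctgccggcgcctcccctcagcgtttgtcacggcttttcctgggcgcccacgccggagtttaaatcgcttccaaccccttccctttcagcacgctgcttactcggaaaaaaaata
Idh1: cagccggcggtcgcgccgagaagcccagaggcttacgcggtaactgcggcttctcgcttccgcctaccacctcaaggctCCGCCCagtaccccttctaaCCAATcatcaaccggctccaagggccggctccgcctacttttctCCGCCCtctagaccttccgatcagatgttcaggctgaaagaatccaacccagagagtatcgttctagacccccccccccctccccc

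The bases of *Suclg2* are chr6:95718847-95719096 on the minus strand, those of *Sucla2* chr14:73552536-73552631 and those of *Suclg1* chr6:73248255-73248381, both on the plus strand, and those of *Idh1* chr1:65186501-65186729 on the minus strand. The stretch shown for *Sucla2* lies inside the Gencode span of the gene, which starts farther upstream. The motifs searched were the ERR site TCAAGGTCA, the NRF1 core, the YY1 core AAGATGGCG, the CCAAT box CCAAT, the GC box GGGCGG and the paired PPAR direct repeat. The letters shown for *Suclg2* hold 1 CCAAT box and 5 GC boxes, of which a pair overlaps by 1 base, those for *Idh1* 1 CCAAT box and 2 GC boxes, and those for *Sucla2* and *Suclg1* none of the 6 motifs. The stretches of *Sucla2* and *Suclg1* are shorter, at 96 and 127 bases against 250 and 229, and the full window of *Sucla2* does hold a GC box, so these counts are not comparable between the genes. Over the full 300-base windows, 28 members had 37 windows. CCAAT boxes were in 24 of these (64.9%, against 37.4% of all 32851 windows) and GC boxes also in 24 (64.9%, against 35.7%). The ERR site was in 1 window, of *Sdhd* (2.7%, against 0.423%), and the YY1 core in 1, of *Idh3g* (2.7%, against 1.40%). The NRF1 core and the PPAR pair were in 0 member windows, against 0.971% and 0.0396% of all windows. All members passed the filter on mean RPKM, whereas all windows include those of genes that were not tested here. Shares over the windows of tested genes alone were not computed, and a gene can have several windows. These matches describe letters and no measured binding.

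*Suclg2* (chr6:95473009-95718800, minus strand, GRCm38) was at 3.31, 3.94 and 4.60 RPKM in KD 1 to 3 and at 6.83, 6.19 and 6.73 RPKM in NC 1 to 3. All KD libraries lay below all controls, and the control libraries were close to each other. The KD mean was 60.0% of the control mean, with a log2 fold change of -0.62 (SE 0.118, 95% interval -0.89 to -0.35, adjusted p = 0.0124 in limma). The gene spans 245.8 kb, which makes it, with *Pcx*, 1 of 2 members of 100 kb or more. Over all genes with a Gencode span, the 885 of at least 100 kb had a median log2 fold change of -0.34 and the shorter ones 0.052. The part of gene length in the value of *Suclg2* was not tested.

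*Sucla2* (chr14:73525319-73596142, plus strand) was at 12.4, 12.6 and 15.8 RPKM in KD 1 to 3 and at 25.0, 18.8 and 24.2 RPKM in NC 1 to 3. Again the groups did not overlap, with NC ctrl 2 nearest to KD. The KD mean was 59.8% of the control mean (log2 fold change -0.70, SE 0.151, 95% interval -1.05 to -0.35, adjusted p = 0.0175 in limma). Over its 9 accessions of control mean at least 1 RPKM, KD stood at 49.8 to 61.9% of control, and over the 5 of *Suclg2* at 58.9 to 74.5%, but accessions of a gene share reads. On the Ensembl transcript of highest level, *Sucla2* rested on 2396 to 5104 reads per library.

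*Suclg1* (chr6:73248382-73276911, plus strand), the common alpha subunit, was at 18.0, 18.5 and 17.8 RPKM in KD and at 19.0, 16.5 and 20.5 RPKM in controls. The KD libraries lay within the range of the controls, and the difference was not called (log2 fold change -0.04, 95% interval -0.31 to 0.23, adjusted p = 0.83 in limma). Its sign turned when RefSeq mRNA accessions alone were used (0.0031), with the highest accession (0.0013) or without NC ctrl 3 (0.028). The summed RPKM of both beta subunits over that of the alpha subunit was 0.871, 0.894 and 1.15 in KD and 1.68, 1.52 and 1.51 in controls. This ratio was formed after the values were seen and has no test. Its level depends on the accessions averaged, as does the share below. On the RefSeq mRNA alone, *Suclg2*, *Sucla2* and *Suclg1* were at 6.24, 16.5 and 33.1 RPKM in KD. In controls they were at 10.6, 27.8 and 33.1 RPKM. Between the beta subunits the balance was similar in both groups: *Suclg2* made up 21.1, 23.9 and 22.5% of their sum in KD and 21.4, 24.7 and 21.7% in controls. The difference of the group means was -0.13 percentage points (22.5 ± 1.40% against 22.6 ± 1.82%, SD, n = 3 each, exact two-sided permutation p = 0.90), and 3 libraries against 3 cannot give an exact p below 0.1.

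*Idh1* (chr1:65158616-65186500, minus strand), the cytosolic NADP-dependent isocitrate dehydrogenase, was at 93.8, 116 and 136 RPKM in KD 1 to 3 and at 179, 149 and 174 RPKM in NC 1 to 3. The groups did not overlap, but KD 3 and NC ctrl 2 came close. The KD mean was 68.8% of the control mean (log2 fold change -0.55, SE 0.166, 95% interval -0.93 to -0.17, adjusted p = 0.0470 in limma). *Idh2*, the mitochondrial NADP-dependent paralog, was at 5.47 to 6.69 RPKM in KD and 6.29 to 7.05 RPKM in controls and was not called (log2 fold change -0.10, 95% interval -0.34 to 0.15, adjusted p = 0.52 in limma). The ratio of *Idh1* to *Idh2* RPKM was 15.4, 17.4 and 24.8 in KD and 25.3, 23.7 and 27.3 in controls, again a description formed after the values were seen, with KD 3 inside the range of the controls.

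The 3 calls depended on single libraries. *Suclg2* kept an adjusted p under 0.05 in limma without any 1 of the KD libraries or without NC ctrl 2, and lost it without NC ctrl 1 (0.0622) or NC ctrl 3 (0.0650). *Sucla2* kept it without KD 3 (0.0045) or NC ctrl 2 (0.0235) and was otherwise between 0.0570 and 0.0836. *Idh1* kept it only without KD 3 (0.0134) and was between 0.0694 and 0.164 without any other library. The number of members called was 1 without KD 1, 1 without KD 2, 8 without KD 3, 0 without NC ctrl 1, 2 without NC ctrl 2 and 0 without NC ctrl 3. At an unadjusted p under 0.05, limma gave 6, 6, 12, 4, 18 and 4 members in the same order, that is, 19.4, 19.4, 38.7, 12.9, 58.1 and 12.9% of them. The shares of all genes were 32.6, 32.4, 50.1, 28.4, 34.0 and 28.4%, so that the members lay above them without NC ctrl 2 and below them in the other cases. Without KD 3 the added genes were *Aco1*, *Dld*, *Idh3a*, *Pcx* and *Pdhx*, all with lower levels in KD. Over all genes the same omissions gave 1164, 1094, 4810, 421, 1583 and 369 calls.

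**Figure D3:**
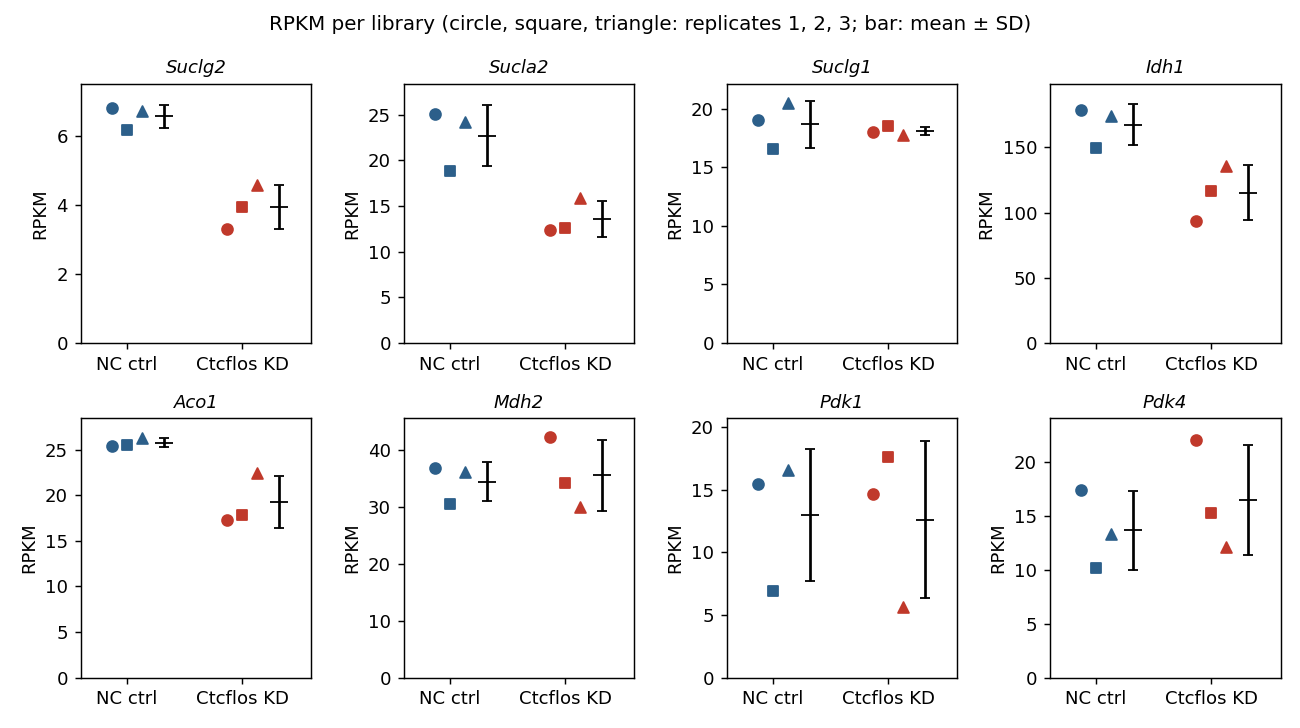
RPKM (y axes, from 0) of 8 genes in the control libraries (blue) and the KD libraries (red), with circle, square and triangle for replicates 1, 2 and 3 and mean ± SD beside them (n = 3). *Suclg2*, *Sucla2* and *Idh1* are the called genes, *Suclg1* and *Mdh2* overlap between the groups, and *Pdk1* is low in NC ctrl 2 and in KD 3.

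Among the members listed for citrate formation and for the other dehydrogenases of the cycle, none was called. *Aco1*, the cytosolic aconitase that also acts as iron regulatory protein, was at 17.3, 17.9 and 22.5 RPKM in KD and 25.4, 25.4 and 26.3 RPKM in controls. Its groups did not overlap and the controls differed little, with an adjusted p of 0.0507 in limma (log2 fold change -0.41, SE 0.129), just outside the threshold. It passed in 3 of 12 alternatives, namely with RefSeq mRNA accessions alone (0.0460), with median-of-ratios scaling (0.0491) and without KD 3. Over the 12 alternatives the adjusted p in limma ran from 0.0068 to 0.167. It was 0.0893 without the filter on low values and 0.0963 with a replicate block. *Cs*, the citrate synthase that opens the cycle, was at 112, 111 and 117 RPKM in KD and 144, 120.1 and 143 RPKM in controls. The KD libraries lay below all controls, with NC ctrl 2 within 3 RPKM of KD 3 (log2 fold change -0.25, 95% interval -0.55 to 0.05, adjusted p = 0.18 in limma).

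The NAD-dependent isocitrate dehydrogenase is built from the catalytic subunit of *Idh3a* and the subunits of *Idh3b* and *Idh3g*. *Idh3a* was at 64.7, 59.5 and 84.6 RPKM in KD and 114, 79.7 and 90.8 RPKM in controls, and KD 3 lay above NC ctrl 2 (log2 fold change -0.44, 95% interval -0.87 to -0.01, adjusted p = 0.12 in limma). *Idh3b* and *Idh3g* had log2 fold changes of -0.13 and -0.25 (adjusted p = 0.45 and 0.19 in limma) and overlapped as well. The 2-oxoglutarate dehydrogenase complex consists of *Ogdh* (E1), *Dlst* (E2) and *Dld* (E3), the last of which also serves pyruvate dehydrogenase. *Dld* was at 33.0, 34.2 and 43.7 RPKM in KD and 54.3, 44.6 and 52.0 RPKM in controls, all KD libraries being lower (log2 fold change -0.44, SE 0.149, adjusted p = 0.0654 in limma). For *Ogdh* and *Dlst* the log2 fold changes were -0.29 and -0.22, each with an adjusted p of 0.20 in limma, and the groups overlapped in *Ogdh* but not in *Dlst*.

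Succinate dehydrogenase gave 0 calls among its 4 subunits in limma, and 0 at an unadjusted p under 0.05. The catalytic flavoprotein *Sdha* was at 31.7, 32.8 and 27.9 RPKM in KD and 33.3, 25.4 and 31.4 RPKM in controls, with overlap (log2 fold change 0.04, 95% interval -0.28 to 0.36, adjusted p = 0.84 in limma). *Sdhd*, a membrane anchor, was at 131, 155 and 165 RPKM in KD and 200.4, 171 and 194 RPKM in controls. All KD libraries of *Sdhd* were lower, and the difference was not called (log2 fold change -0.32, 95% interval -0.65 to 0.00, adjusted p = 0.13 in limma). The iron-sulfur subunit *Sdhb* and the other membrane anchor *Sdhc* overlapped between the groups, with log2 fold changes of -0.20 and -0.12 (adjusted p = 0.29 and 0.51 in limma).

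Fumarase (*Fh1*) and the malate dehydrogenases close the cycle. *Mdh2*, the mitochondrial form, was at 42.4, 34.3 and 30.0 RPKM in KD and 36.8, 30.5 and 36.1 RPKM in controls, with the highest and the lowest value both in KD (log2 fold change 0.03, 95% interval -0.32 to 0.39, adjusted p = 0.89 in limma). The sign turned without KD 1 (-0.10) or NC ctrl 2 (-0.05). *Mdh1*, the cytosolic form, was at 85.5, 100.2 and 105 RPKM in KD and 132, 103 and 132 RPKM in controls, where NC ctrl 2 fell among the KD libraries (log2 fold change -0.33, 95% interval -0.68 to 0.02, adjusted p = 0.15 in limma). *Fh1* was at 18.2 to 18.8 RPKM in KD and at 24.1, 17.8 and 22.6 RPKM in NC 1 to 3 (adjusted p = 0.31 in limma). There too, NC ctrl 2 was as low as KD.

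The pyruvate dehydrogenase complex comprises the E1 subunits *Pdha1* and *Pdhb*, the E2 *Dlat*, the E3-binding *Pdhx* and *Dld*. *Pdhx* was at 12.8, 13.6 and 14.3 RPKM in KD and 18.0, 15.4 and 17.6 RPKM in controls, without overlap (log2 fold change -0.31, SE 0.112, adjusted p = 0.0791 in limma). *Pdhb* was at 21.9, 23.1 and 22.1 RPKM in KD and 30.4, 23.7 and 29.1 RPKM in controls. The KD libraries of *Pdhb* were all lower, by less than 1 RPKM in the case of KD 2 and NC ctrl 2 (log2 fold change -0.29, adjusted p = 0.13 in limma). *Dlat* and *Pdha1* overlapped, with log2 fold changes of -0.38 and -0.13 (adjusted p = 0.15 and 0.48 in limma).

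Among the kinases that inactivate pyruvate dehydrogenase, none was called in limma, and *Pdk2* and *Pdk3* had unadjusted p-values under 0.05. *Pdk4* was at 22.1, 15.3 and 12.1 RPKM in KD and 17.4, 10.2 and 13.3 RPKM in controls, with overlap (log2 fold change 0.25, 95% interval -0.31 to 0.80, adjusted p = 0.48 in limma). It was the member with the largest positive fold change. *Pdk1* was at 14.6, 17.6 and 5.62 RPKM in KD and 15.4, 6.94 and 16.6 RPKM in controls: KD 3 and NC ctrl 2 were low, the other 4 libraries similar (log2 fold change -0.08, SE 0.424, adjusted p = 0.90 in limma). This was the largest SE of the 31 genes, and the sign of the fold change turned without KD 3 (0.37), NC ctrl 1 (0.08) or NC ctrl 3 (0.12). The low kinases *Pdk2* and *Pdk3*, at 2.00 to 3.85 RPKM, had log2 fold changes of -0.33 and -0.29 (adjusted p = 0.12 and 0.11 in limma), and only *Pdk3* had all KD libraries below all controls.

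The level of the *Pdk4* share depends on the accessions averaged. On the RefSeq mRNA alone, *Pdk4* and *Pdk1* were at 22.8 and 22.1 RPKM in KD and at 18.6 and 22.9 RPKM in controls. With the gene values used here, *Pdk4* made up 52.6, 40.3 and 54.0% of the summed kinase RPKM in KD 1 to 3. In NC 1 to 3 it made up 43.7, 44.7 and 35.8%. The means of 49.0 ± 7.55% and 41.4 ± 4.88% (SD, n = 3 each) differed by 7.57 percentage points (exact two-sided permutation p = 0.30), with KD 2 inside the range of the controls. The summed kinases were at 41.9, 37.9 and 22.3 RPKM in KD and 39.8, 22.7 and 37.3 RPKM in controls, the low values being those of the libraries with little *Pdk1*. The phosphatases *Pdp1* and *Pdp2*, which activate the complex, summed to 12.2, 14.1 and 13.2 RPKM in KD and 16.0, 14.3 and 16.7 RPKM in controls. Each of them had all KD libraries below all controls without a call (log2 fold changes -0.18 and -0.24, adjusted p = 0.21 and 0.15 in limma). *Pcx*, the pyruvate carboxylase, was at 41.8, 26.8 and 52.6 RPKM in KD and 59.1, 52.4 and 51.7 RPKM in controls. KD 3 lay within the controls, and the other KD libraries below them (log2 fold change -0.47, 95% interval -0.99 to 0.05, adjusted p = 0.16 in limma).

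Related genes of pyruvate and TCA metabolism that are no members were read from the same fit. Of 27 tested, 5 were lower in KD (18.5%, against 12.4% of all genes) and 0 higher (against 11.5%) in limma, with a median log2 fold change of -0.21. *Mpc1*, a subunit of the mitochondrial pyruvate carrier, was at 44.6, 58.3 and 51.9 RPKM in KD and 83.6, 63.1 and 85.2 RPKM in controls, with NC ctrl 2 nearest to KD (log2 fold change -0.57, SE 0.165, adjusted p = 0.0411 in limma). Its partner *Mpc2* had a log2 fold change of -0.21 and was not called (adjusted p = 0.32 in limma). Also called were *Nnt*, the nicotinamide nucleotide transhydrogenase (-0.37), *Ldhb*, a lactate dehydrogenase subunit (-0.35), and *Slc25a10*, the dicarboxylate carrier (-0.43). Without KD 3, 11 of these 27 genes were called, against 4810 of 11704 over all genes. Without NC ctrl 2, 3 of 27 were called, against 1583 of 11697 over all genes. Leaving out any other library gave 0 calls among the related genes in limma. There the unadjusted p was under 0.05 for 5 to 8 of them (18.5 to 29.6%, against 28.4 to 32.6% of all genes).

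Neighbouring oxidative genes were read in the same way. Of 36 genes listed by symbol under complex I, 5 were lower in KD in limma (13.9%, against 12.4% of all genes, median log2 fold change -0.23), among them *Ndufs4* (-0.99, adjusted p = 0.0075). This list took symbols that start with Nduf, and not every gene in it need be a subunit of complex I. Of 35 genes listed by symbol under complexes III to V, 1 was lower (2.86%, *Atp5s*, median of the list -0.18), and of 19 genes of fatty acid oxidation 4 were lower (21.1%, *Hadha*, *Cpt1a*, *Hadh* and *Cpt1b*, median -0.23). None was higher in these 3 lists. NC ctrl 2 lay below the mean of the other controls in 36 of 36, 35 of 35 and 19 of 19 of these genes, and in 20 of 27 of the related genes. Over all genes tested, 64.1% lay below that mean in NC ctrl 2. The fold changes of the TCA members were not tested against those of the other lists.

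**Figure D4:**
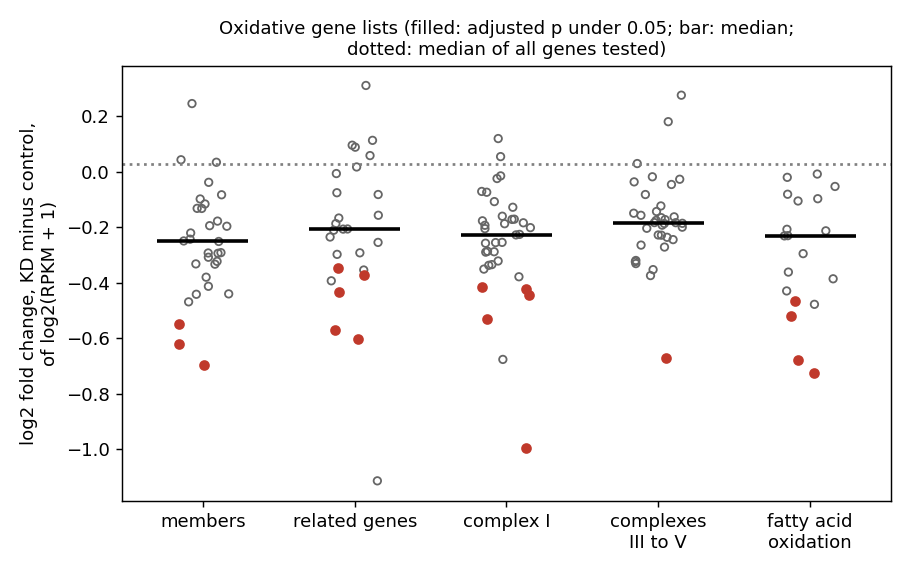
Log2 fold change, KD minus control, of log2(RPKM + 1) (y axis) for the 31 members, the 27 related genes and 3 lists of oxidative genes, with called genes filled (adjusted p under 0.05 in limma), the median of each list as a bar and the median of all genes tested as a dotted line at 0.028. The medians of the 5 lists lie between -0.25 and -0.18, and each called gene is below 0.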

How the data were processed

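RNA-seq was measured in 6 libraries, 3 per group, with groups and replicate numbers from the sample labels. The authors deposited 1 table of RPKM values per accession, without pooling replicates, in which decimals are written with a comma. How this table was made is not given in the sources used here, nor whether counting used the strand, so genes that overlap others on either strand are uncertain. The values were read as RPKM, and a count test was not used. Of 168326 lines, 305 exact repeats were removed, and the gene value was the mean RPKM over the accessions of a symbol. limma-trend was run on log2(RPKM + 1) for genes of mean RPKM at least 1, with Benjamini-Hochberg adjustment over all 11701 genes and a threshold of 0.05. Shares were compared with exact permutation tests.

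Members and gene lists were chosen with earlier results of these data known. All 31 members are named, and of other lists at most the 6 called genes with the smallest adjusted p, plus *Mpc1*, *Mpc2*, *Ctcflos*, *Ucp1* and *Pparg* (log2 fold change -0.36, adjusted p = 0.090). 1 related gene that this rule names is not reported here. Summed smooth muscle and pericyte markers were at 17.8 to 49.0 RPKM in KD and 32.7 to 84.9 RPKM in controls, and those of progenitors and fibroblasts at 224 to 480.0 and 331 to 529 RPKM. Most of the latter sum was *Ly6a*, which overlapped between the groups. Of the progenitor and fibroblast markers only *Pdgfra* was called, as lower in KD (60.1% of the control mean, adjusted p = 0.010 in limma). *Cd68*, *Csf1r*, *Itgam*, *Ptprc*, *Ogdhl*, *Fabp4*, *Cidec*, *Plin4*, *Cebpa*, *Ly6a* and *Pdgfra* were named after their values were seen. Depth was recovered from RPKM and Gencode vM21 transcript lengths, where at least 95.2% of low values were whole reads within 0.05, with 75.5, 75.1 and 60.8 mio mapped reads in KD and 78.0, 79.2 and 62.9 mio in controls. In simulated data of 11701 genes with the same design, and 1 spread for every gene, limma recovered 100 of 100 log2 fold changes of size 1 and 89 of 100 of size 0.5, and called 10 genes that had none. The simulated libraries held no shift shared by many genes, unlike NC ctrl 2, so these counts do not give the recovery in the measured libraries. Alternatives were a pseudocount of 0.1, no filter, median-of-ratios scaling, other gene values, a replicate block and leaving out each library. R 4.3.3, limma 3.58.1, Python 3.11.15, pandas 2.3.3 and numpy 2.4.6 were used.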

Additional observations from a re-analysis of the deposited data

How the results depend on the processing

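Under the 12 alternatives run, *Suclg2*, *Sucla2* and *Idh1* had lower levels in KD throughout. Members called ranged from 0 to 8 of 31 when 1 library was left out and from 2 to 4 of 31 otherwise. The 8 of 31, without KD 3, stood beside 4810 of 11704 called over all genes. The 4 of 31 stood beside 2956 of 11678 (median-of-ratios scaling) and 2836 of 9343 (RefSeq mRNA accessions). *Idh1* was no longer called without the filter on low values (adjusted p = 0.101 in limma), for which more genes are tested. Without that filter 1807 of 38335 were called over all genes, 1 of 32 related genes and 1 of 37 complex I genes. That related gene was *Ogdhl*, which was higher in KD and lies under the filter (0.129 against 0.0129 RPKM), so that none of the 5 related genes called as lower passed. Median-of-ratios scaling gave 2 calls in complexes III to V. Leaving out 1 library gave 369 to 4810 calls over all genes, 0 to 11 related genes, 1 to 6 complex I genes, 0 to 1 in complexes III to V and 0 to 5 in fatty acid oxidation, and *Ctcflos* a log2 fold change of -0.72 to -0.63. The difference in the *Suclg2* share was -0.82 to 0.92 percentage points, turning sign without KD 1 (0.58) or NC ctrl 2 (0.92).

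Signs also turned for *Suclg1* with RefSeq mRNA accessions (0.0031), with the highest accession (0.0013) or without NC ctrl 3 (-0.12 to 0.028 over the libraries left out), for *Mdh2* without KD 1 or NC ctrl 2 (-0.10 to 0.15), for *Sdha* without KD 2 or NC ctrl 2 (-0.070 to 0.12) and for *Pdk1* without KD 3, NC ctrl 1 or NC ctrl 3 (-0.45 to 0.37). The cause of these changes was not tested. Same-numbered libraries of the groups did not deviate together (correlations 0.29, -0.29 and -0.42), so that the numbers were not taken to pair them. With a replicate block, 1671 of 11701 were called over all genes and 2 of 31 members (*Suclg2* and *Sucla2*). Among related genes 1 of 27 was called, and among complex I genes 1 of 36. *Ctcflos* then had a log2 fold change of -0.66 with an adjusted p of 0.11 in limma. Of the 22 members with reads recovered on an Ensembl transcript, the transcripts of *Pdk3* and *Pdk4* had the fewest, 48 to 162 per library. These transcripts were the shortest of those used. The transcript of *Pdk4* also lay below the RefSeq mRNA of that gene in RPKM in every library. The counts therefore belong to these transcripts and do not give the reads on the whole genes.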
